A study of Mus musculus with 62 samples.

Results

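Insulin and the insulin-like growth factors (IGF) are the hormones that drive muscle growth, and this account describes 10 genes of their pathway in the diaphragm of mice with cancer cachexia. The genes are the ligands Igf1 and Igf2, the receptors Igf1r and Insr, the receptor adaptors Irs1 and Irs2, the binding proteins Igfbp3 and Igfbp5, the lipid kinase subunit Pik3r1 and the translation repressor Eif4ebp1. They were taken by symbol from a table of 47643 genes, all 10 were found, and each passed the filter of 1 TPM in at least 5 mice, as did 13578 genes in all. TPM, the unit of all levels, corrects the reads for gene length and gives each library the same total. Levels are thus shares of a library, and a larger share held by some genes lowers those of all others.

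The diaphragms came from 62 female mice that were 2 months of age when injected. Cachectic mice (CAC) received cells of a melanoma that causes wasting, non-cachectic mice (NCAC) received cells of a melanoma that does not, and control mice (Con) had a mock injection. Muscles were taken 2, 4, 6 or 8 weeks (wk) after implantation from 5 mice per condition, and from 7 cachectic mice at 8 weeks. Each tumor group rests on 1 patient-derived xenograft, so what sets cachectic apart from non-cachectic mice cannot be told apart from other differences between both tumors. The series' design names NCI Ath/nude mice, which lack a thymus and most T cells, while the sample labels name C57BL6/J. All 10 genes of a list of myofiber markers were measured, and their summed level was between 38732 and 94582 TPM in every mouse.

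IGF1 and IGF2 bind the IGF1 receptor, and insulin binds the insulin receptor. Both receptors phosphorylate IRS1 and IRS2, which recruit PI3-kinase through its regulatory subunit p85, the product of Pik3r1. The kinase AKT then keeps FoxO transcription factors out of the nucleus and activates mTORC1. mTORC1 in turn phosphorylates 4E-BP1, the product of Eif4ebp1, which otherwise blocks cap-dependent translation. In muscle this cascade promotes protein synthesis and restrains protein breakdown, and IGF binding proteins such as IGFBP3 and IGFBP5 hold the ligands outside the cell.

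By limma's test in the diaphragm of cachectic mice, Eif4ebp1 and Igfbp3 rose at 6 and 8 weeks and Irs1 fell at 8 weeks, compared with control mice of the same week. Mean levels were 3.92-fold (Eif4ebp1), 3.65-fold (Igfbp3) and 0.372-fold (Irs1) those of controls at 8 weeks. Neither ligand passed the test at 4, 6 or 8 weeks, and no member passed it at 4 weeks, when 0.0221% of all genes tested did. None passed it in non-cachectic versus control mice at those weeks, where 0 genes passed in all. On GRCm38 (GENCODE M21) Eif4ebp1 spans chr8:27260329-27276674 on the plus strand, Igfbp3 chr11:7206086-7213923 and Irs1 chr1:82233101-82291416, both on the minus strand.

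**Figure D1:**
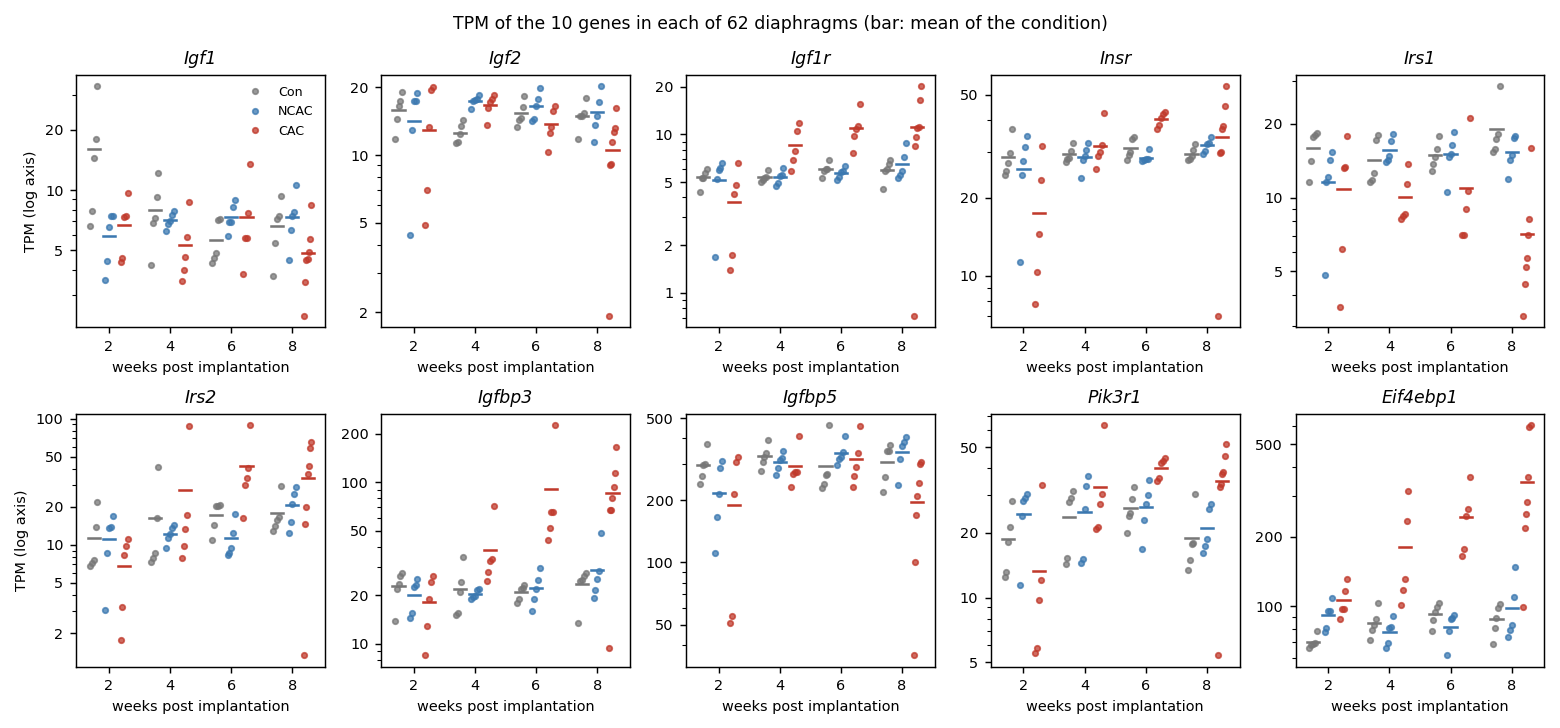
TPM of each of the 10 genes (log axis) in every mouse by week post implantation, with control (grey), non-cachectic (blue) and cachectic mice (red) side by side and a bar at the mean of each condition. Cachectic mice at 6 weeks lie above every control for Igf1r, Insr, Igfbp3, Pik3r1 and Eif4ebp1, as for 15.9% of all genes tested. The low red point at 8 weeks in most panels is replicate 3.

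Some libraries stood apart, and results that rest on them are given with and without them. The fewest genes above 0, from 15069 to 16389, were found in 4 libraries: cachectic replicate 3 at 8 weeks, and at 2 weeks cachectic replicates 3 and 4 with non-cachectic replicate 5. Each of the remaining 58 had 17909 or more. The 37 mitochondrially encoded genes held 54.4% to 61.5% of the TPM in the 4 libraries, and at most 50.1% elsewhere. At 6 weeks they held 34.3% to 44.9% in cachectic mice and 44.9% to 47.9% in controls. At 8 weeks they held 32.5% to 41.6% in cachectic mice other than replicate 3, and 40.9% to 49.3% in controls. TPM of all other genes depend on this share. Another 4 libraries, control replicates 2, 4 and 5 at 2 weeks and cachectic replicate 5 at 6 weeks, were highest in 10 liver genes, with a mean log2(TPM + 1) of 7.66 to 10.02 against a median of 1.85 over all mice. Since only TPM were used, the number of reads behind each value is unknown.

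The promoters of 4 members are shown because they belong to a gene called higher (Igfbp3), genes called lower (Irs1, and Igfbp5 against non-cachectic mice) and a receptor gene whose groups did not overlap at 6 weeks (Igf1r). Each is the 250 bases before the start annotated by RefSeq on GRCm38.p6, 5′ to 3′ on the strand of the gene. The window of Igfbp3 is chr11:7213924-7214173 (minus strand) and that of Igf1r chr7:67952007-67952256 (plus strand). Those of Irs1 and Igfbp5 are chr1:82291440-82291689 and chr1:72874866-72875115 (both minus strand). RefSeq and GENCODE starts differ for Igf1r, Irs1 and Igfbp5. Capitals mark the GC box GGGCGG, read on either strand.
Igfbp3: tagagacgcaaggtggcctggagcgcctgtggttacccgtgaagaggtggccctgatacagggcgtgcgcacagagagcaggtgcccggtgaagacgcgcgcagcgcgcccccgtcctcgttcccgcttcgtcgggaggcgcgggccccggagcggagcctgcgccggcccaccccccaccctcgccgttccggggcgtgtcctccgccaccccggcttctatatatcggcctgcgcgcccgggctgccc
Igf1r: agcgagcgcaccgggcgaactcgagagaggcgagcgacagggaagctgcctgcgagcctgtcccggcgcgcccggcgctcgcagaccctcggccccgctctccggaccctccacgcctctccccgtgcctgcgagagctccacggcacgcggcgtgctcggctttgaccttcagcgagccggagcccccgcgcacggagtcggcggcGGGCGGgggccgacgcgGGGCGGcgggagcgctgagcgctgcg
Irs1: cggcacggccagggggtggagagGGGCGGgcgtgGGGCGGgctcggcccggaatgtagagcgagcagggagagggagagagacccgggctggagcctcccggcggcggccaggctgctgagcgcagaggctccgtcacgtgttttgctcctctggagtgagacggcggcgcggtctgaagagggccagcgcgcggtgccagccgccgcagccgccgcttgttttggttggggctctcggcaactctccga
Igfbp5: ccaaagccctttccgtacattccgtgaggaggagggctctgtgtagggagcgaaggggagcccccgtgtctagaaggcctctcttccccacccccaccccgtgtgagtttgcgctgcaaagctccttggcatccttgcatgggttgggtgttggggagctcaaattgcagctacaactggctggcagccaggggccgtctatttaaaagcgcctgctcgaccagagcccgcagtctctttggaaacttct
Igf1r and Irs1 held 2 GC boxes each, and Igfbp3 and Igfbp5 held none. The box was present in 32.7% of 32851 RefSeq windows of this length. GC content was 73.2% (Igfbp3), 77.6% (Igf1r), 72.4% (Irs1) and 58.8% (Igfbp5). The letters GTAAACA (FoxO) and TTCNNNGAA (STAT) and the palindromic glucocorticoid response element, searched on both strands, were in none of the 12 windows of the 8 members matched. They were in 3.17%, 7.02% and 0.387% of all windows. Windows for Insr and Eif4ebp1 were not used here.

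The most abundant member was Igfbp5, with a median of 294 TPM over the 62 mice, followed by Eif4ebp1 at 94.6 TPM. Insr (29.9 TPM), Pik3r1 (26.5 TPM) and Igfbp3 (24.0 TPM) formed the middle of the order. Igf2 (14.9 TPM), Irs1 (14.1 TPM) and Irs2 (14.1 TPM) were close to each other, and their ranges over mice overlapped. Igf1 (6.88 TPM) and Igf1r (5.92 TPM) were the lowest. Between conditions, mean TPM differed least for Igf2, by 1.65 times, and most for Irs2, by 6.10 times.

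The ligand Igf1, the growth factor that liver and muscle both make, did not pass against controls at 4, 6 or 8 weeks. In control mice at 8 weeks its values were 3.73, 9.33, 7.15, 7.42 and 5.42 TPM. Cachectic mice at 8 weeks had between 2.36 and 8.45 TPM, with a median of 4.55 TPM. Both ranges overlapped, and 2 of 7 cachectic mice lay below every control. The log2 fold change was -0.40 with a 95% interval of -0.93 to 0.14, and limma's adjusted p was 0.364. With array quality weights it was called lower (-0.56, adjusted p = 0.0303). At other weeks the log2 fold change was -0.49 (-1.07 to 0.09) at 4 weeks and 0.26 (-0.32 to 0.84) at 6 weeks. Without cachectic replicate 5 at 6 weeks, a library high in liver genes with 13.6 TPM, it was 0.03.

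Igf2, a growth factor prominent before birth, had 11.8, 14.9, 14.9, 17.9 and 15.4 TPM in control mice at 8 weeks. In cachectic mice its range was 1.93 to 16.2 TPM with a median of 11.5 TPM, and 4 of 7 lay below every control. The log2 fold change was -0.62 (SE 0.27, 95% interval -1.16 to -0.08), which did not pass (limma, adjusted p = 0.118). Without replicate 3, the cachectic mouse with 1.93 TPM, it was -0.32 (adjusted p = 0.381). It was called lower in 5 of 13 alternatives, with adjusted p-values from 0.00744 (quantile normalization) to 0.0472. Among these 5 is the replicate block, a fit that sets aside cachectic replicates 6 and 7. An exon of Igf2 overlaps an antisense gene, Igf2os, which had a mean of 0.132 TPM. Exons of Igf2 also overlap Gm49394 on the same strand, which has no TPM value here, so its part in the Igf2 level is unknown.

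Igf1 differed between groups at 2 weeks, when its control values were 6.60, 33.1, 7.85, 14.5 and 18.0 TPM. The 3 control mice above 14 TPM were those high in liver genes. Cachectic mice had 9.72, 7.45, 4.36, 4.59 and 7.36 TPM and non-cachectic mice 6.51, 3.54, 7.46, 7.47 and 4.44 TPM. Igf1 was lower than in controls in cachectic mice, with a log2 fold change of -0.98 (SE 0.29, limma, adjusted p = 0.0161), and in non-cachectic mice (-1.13, SE 0.29, adjusted p = 0.00825), where 4.42% of all genes were called lower. Without the 4 libraries highest in liver genes the values were -0.14 (adjusted p = 0.788) and -0.30 (adjusted p = 1.0), and no gene of the whole table passed in either comparison. That fit keeps only control replicates 1 and 3 at 2 weeks, so it has little power to find a difference.

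**Figure D2:**
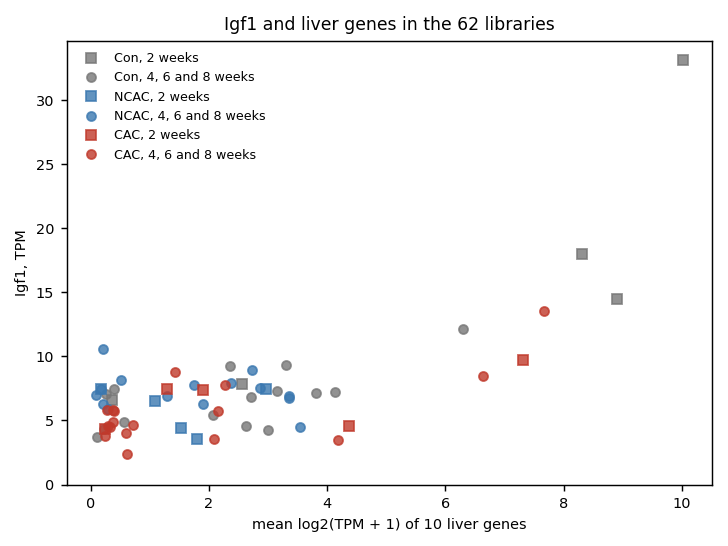
Igf1 in TPM against the mean log2(TPM + 1) of 10 liver genes in the 62 libraries, with the 2-week mice as squares. The highest Igf1 levels, 33.1, 18.0 and 14.5 TPM, are those of the 3 control mice at 2 weeks with liver means above 8, and cachectic replicate 5 at 6 weeks follows with 13.6 TPM.

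Insr and Igfbp5 also fell in cachectic mice at 2 weeks, by 0.84 and 1.02 on the log2 scale (limma, adjusted p = 0.0243 and 0.0387). This made 3 of 10 members lower, where 27.8% of all genes tested were called lower. Without the 4 libraries with the fewest genes, 2 of which are cachectic mice of this week, the values were -0.35 and -0.07 and 0 of 10 members and 0 genes passed. In cachectic mice at 2 weeks, Insr was 14.6, 31.7, 7.78, 10.3 and 23.4 TPM, and the lowest pair of values is that of these libraries. Eif4ebp1 was the exception in direction, with 97.2, 117, 130, 97.5 and 88.4 TPM in cachectic mice and 67.8, 78, 65.8, 69.3 and 68.8 TPM in controls. Its groups did not overlap, as for 0.412% of genes in this direction, and its log2 fold change of 0.58 did not pass (adjusted p = 0.0799). Non-cachectic mice had 95.1, 109, 77.1, 94.9 and 80.6 TPM, and 4 of 5 lay above every control.

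Neither receptor gene passed in the comparison of all mice, and calls under other settings are given beside the values. Igf1r, the receptor for both IGF, was 5.87, 5.32, 6.85, 6.06 and 6.01 TPM in control mice at 6 weeks and 15.4, 11.3, 9.73, 10.8 and 7.64 TPM in cachectic mice. Every cachectic value lay above every control value, as for 15.9% of genes in this direction, and the mean was 1.82-fold higher. As a log2 fold change this was 0.74 (SE 0.32), with a limma adjusted p of 0.173. It passed with array quality weights (adjusted p = 1.35e-07) and in a fit of only the groups compared (adjusted p = 0.00493). Of 13 alternatives 9 did not call it, and over the alternatives its log2 fold change ranged from 0.54 to 0.85. At 8 weeks control mice had 4.52 to 6.88 TPM, while cachectic mice had 0.718 to 20.1 TPM with a median of 10.9 TPM. Here 6 of 7 cachectic mice lay above every control and replicate 3 lay below, and the log2 fold change of 0.51 did not pass (adjusted p = 0.282). It was 0.57 with median-ratio scaling and with quantile normalization (adjusted p = 0.0351 and 0.0268), 0.75 with array quality weights (adjusted p = 4.11e-07) and 0.93 without replicate 3 (adjusted p = 0.000963). In 8 of 13 alternatives it did not pass.

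Insr, the insulin receptor, was 33.7, 34.4, 29.2, 29.96 and 28.1 TPM in control mice at 6 weeks and 42.2, 42.8, 40.8, 38.2 and 36.8 TPM in cachectic mice. The groups did not overlap, as for 15.9% of genes in this direction, with a mean 1.29-fold higher. The log2 fold change of 0.36 did not pass (SE 0.27, adjusted p = 0.491). It passed with array quality weights (adjusted p = 0.00108) and with only the groups compared (adjusted p = 0.00651). Of 13 alternatives 9 did not call it, and over the alternatives its log2 fold change ranged from 0.17 to 0.39. At 8 weeks the cachectic range was 7.02 to 54.1 TPM with a median of 36.8 TPM against 28.0 to 32.3 TPM in controls. The log2 fold change was 0.03, with an interval of -0.48 to 0.54. It was -0.08 with TPM rescaled without mitochondrial genes and 0.29 with array quality weights (adjusted p = 0.0162). It was 0.35 without replicate 3, whose 7.02 TPM is the lowest of the 62 values, and its adjusted p was 0.219 then and 0.0236 without all 4 libraries with few genes.

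Of the adaptor genes, Irs1, which couples both receptors to PI3-kinase, fell at 8 weeks. Control mice had 18.2, 28.6, 17.4, 15.4 and 15.8 TPM and non-cachectic mice 14.96, 17.8, 11.95, 17.6 and 14.2 TPM. Cachectic mice had between 3.30 and 15.9 TPM, with a median of 5.65 TPM. All but replicate 5, at 15.9 TPM, lay below every control and every non-cachectic mouse. Irs1 thus changed by -1.41 on the log2 scale against controls (SE 0.26, limma, adjusted p = 8.81e-05) and -1.13 against non-cachectic mice (SE 0.26, adjusted p = 0.00169). The call against non-cachectic mice was lost in a fit of only the groups compared (adjusted p = 0.0578) and by Dunn's rank test (adjusted p = 0.0807).

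Earlier differences of Irs1 did not pass in the comparison of all mice. At 4 weeks cachectic mice had 8.58, 8.22, 11.4, 8.42 and 13.8 TPM, against 14.04 to 18.2 TPM in non-cachectic mice and 11.6 to 18.1 TPM in controls. The cachectic and non-cachectic groups did not overlap, as for 0.906% of genes in this direction, but the log2 fold change of -0.61 did not pass (limma, adjusted p = 0.898). At 6 weeks they had 7.03, 10.6, 21.2, 7.03 and 9.01 TPM, where replicate 3 exceeded every control, and the fold change of -0.52 did not pass (adjusted p = 0.305). It was called lower with median-ratio scaling (-0.69, adjusted p = 0.0401), quantile normalization (-0.71, adjusted p = 0.0301) and array quality weights (-0.48, adjusted p = 0.0313). Irs1 overlaps the antisense gene Gm9747, which had a mean of 0.0178 TPM.

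Irs2, the other adaptor and a known FoxO target, ranged from 1.34 to 88.5 TPM over the 62 mice. At 6 weeks control mice had 20.4, 14.3, 20.2, 20.8 and 10.9 TPM and cachectic mice 29.6, 88.5, 34.0, 16.3 and 40.8 TPM. The median was 1.68-fold higher, 4 of 5 cachectic mice lay above every control, and the log2 fold change of 1.05 (SE 0.56) did not pass (adjusted p = 0.294). It passed with array quality weights (adjusted p = 0.00585) and with only the groups compared (adjusted p = 0.0485), and 11 of 13 alternatives did not call it. At 8 weeks cachectic mice had 1.34 to 65.2 TPM with a median of 36.2 TPM, and controls 12.9 to 29.2 TPM. Its log2 fold change was 0.42 (-0.62 to 1.47), 0.99 without replicate 3 (adjusted p = 0.125) and 1.11 with array quality weights (adjusted p = 0.0171).

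Of the binding protein genes, Igfbp3, the main carrier of circulating IGF, rose at 6 weeks, when control mice had 19.1, 21.7, 22.3, 23.3 and 17.9 TPM and cachectic mice 225, 65.3, 52.3, 65.1 and 44.2 TPM. Non-cachectic mice had 19.0, 21.7, 29.3, 16.1 and 24.8 TPM. Every cachectic mouse lay above all mice of both other groups, as for 15.9% of genes against controls and 13.6% against non-cachectic mice. The increase was 1.79 on the log2 scale against controls (SE 0.39, limma, adjusted p = 0.00227) and 1.72 against non-cachectic mice (SE 0.39, adjusted p = 0.00371). Without replicate 1, the mouse at 225 TPM, it was 1.39 against controls (adjusted p = 0.0315). Dunn's test called it against neither group (adjusted p = 0.0687 and, against non-cachectic mice, 0.128).

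At 8 weeks Igfbp3 was 13.4, 24.6, 26.3, 27.5 and 24.9 TPM in controls and 9.49 to 165 TPM in cachectic mice, with a median of 79.7 TPM. Of the 7 cachectic mice, 6 lay between 67.5 and 165 TPM, and replicate 3 lay below every control. Igfbp3 rose by 1.53 on the log2 scale (SE 0.36, limma, adjusted p = 0.00194), and 1.29 against non-cachectic mice (SE 0.36, adjusted p = 0.0110). The call against controls was lost in a fit of only the groups compared (adjusted p = 0.158) and by Dunn's test (adjusted p = 0.251), as was that against non-cachectic mice (adjusted p = 0.292 and 0.365). The change against controls was 1.99 without replicate 3 (adjusted p = 7.88e-07). At 4 weeks cachectic mice had 33.4, 71.5, 24.4, 32.6 and 27.8 TPM, all above the 18.9 to 21.9 TPM of non-cachectic mice, as for 5.52% of genes in this direction. Neither comparison passed (log2 fold changes of 0.76 and, against controls, 0.71).

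Igfbp5, the binding protein most abundant in muscle, was 220, 371, 346, 345 and 258 TPM in control mice at 8 weeks and 316, 404, 238, 366 and 383 TPM in non-cachectic mice. Cachectic mice had 35.7 to 307 TPM with a median of 209 TPM, and 4 of 7 lay below every control. It fell by 1.05 on the log2 scale against non-cachectic mice (SE 0.35, limma, adjusted p = 0.0355), a call lost with only the groups compared (adjusted p = 0.316) and by Dunn's test (adjusted p = 0.0776). Against controls the change of -0.90 did not pass (SE 0.35, adjusted p = 0.0752), and it was called lower in 6 of 13 alternatives. Among these 6 is the replicate block, a fit that sets aside cachectic replicates 6 and 7. Replicate 3 held the lowest value, and without it the changes were -0.69 (adjusted p = 0.118) and -0.54 (adjusted p = 0.241). Leaving out each of the 12 mice in turn ended the call against non-cachectic mice in 6 cases, which were cachectic replicates 1 and 3 and non-cachectic replicates 1, 2, 4 and 5. Of 7 fibroblast markers, Col1a1, Col1a2 and Col3a1 were lower against non-cachectic mice at 8 weeks and the other 4 did not pass. Against controls these 3 and Lum were lower, Dcn was higher, and Pdgfra and Dpt did not pass. Their summed level was 731 to 1845 TPM in cachectic mice, 631 to 1227 TPM in controls and 793 to 1170 TPM in non-cachectic mice, and none of them was at 0 in every mouse. Their part in the result was not tested. In bulk muscle, fewer cells of a type and less RNA per cell cannot be told apart.

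Pik3r1, the subunit that docks PI3-kinase to IRS proteins, was 13.4, 14.96, 18.0, 17.7 and 30.3 TPM in control mice at 8 weeks. Cachectic mice had 5.41 to 51.5 TPM with a median of 37.4 TPM, and all but replicate 3 lay above every control. This gave a log2 fold change of 0.70 (0.00 to 1.39, limma, adjusted p = 0.185), and 1.08 without replicate 3 (adjusted p = 0.00631). It passed with median-ratio scaling, quantile normalization and array quality weights (adjusted p = 0.0128, 0.0216 and 0.000329), and 8 of 13 alternatives did not call it. At 6 weeks cachectic mice had 43.1, 42.3, 36.0, 44.3 and 34.8 TPM and controls 20.0 to 32.7 TPM. These did not overlap, as for 15.9% of genes in this direction, and the log2 fold change of 0.62 did not pass (adjusted p = 0.367). It passed with array quality weights (adjusted p = 0.0201) and with only the groups compared (adjusted p = 0.00592). Of 13 alternatives 11 did not call it, and over the alternatives its log2 fold change ranged from 0.43 to 0.67.

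Eif4ebp1 had the smallest limma adjusted p of the 10 genes against controls at 6 and 8 weeks. By Dunn's test only Irs1 was called among them, at 8 weeks (adjusted p = 0.0154). Control mice at 6 weeks had 94.2, 103, 87.3, 99.6 and 78.2 TPM and non-cachectic mice 92.0, 88.6, 78.3, 61.5 and 88.0 TPM. Cachectic mice had 360, 263, 176, 245 and 165 TPM. All cachectic mice lay above all others, as for 15.9% of genes against controls and 13.6% against non-cachectic mice. Eif4ebp1 rose by 1.32 on the log2 scale against controls (SE 0.27, limma, adjusted p = 0.000939) and by 1.51 against non-cachectic mice (SE 0.27, adjusted p = 0.00019). Dunn's test called neither (adjusted p = 0.12 and 0.117).

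At 8 weeks Eif4ebp1 was 68.3, 102, 80.2, 89.3 and 98.2 TPM in controls and 110, 73.9, 147, 79.2 and 83.3 TPM in non-cachectic mice. Cachectic mice ranged from 99.3 to 605 TPM with a median of 283 TPM, and replicates 1 and 6 reached 593 and 605 TPM. Only replicate 3, at 99.3 TPM, fell within the control range. The difference was 1.76 on the log2 scale against controls (SE 0.25, adjusted p = 1.05e-06) and 1.62 against non-cachectic mice (SE 0.25, adjusted p = 6.51e-06), and Dunn's test called neither (adjusted p = 0.0554 and 0.106). At 4 weeks cachectic mice had 118, 313, 131, 234 and 101.4 TPM, all above the 65.8 to 90.5 TPM of non-cachectic mice, as for 5.52% of genes in this direction. The log2 fold changes of 1.07 against them and 0.95 against controls did not pass (adjusted p = 0.136 and 0.274). Without the 4 libraries with few genes both passed at the same fold changes (adjusted p = 0.00642 and 0.0206). None of these libraries is from 4 weeks, so only the spread shared by all conditions differs between both fits.

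Over the 10 members, limma called 2 higher and 1 lower in cachectic versus control mice at 8 weeks, where 14.8% of the 13578 genes tested were called (6.65% higher and 8.12% lower). With median-ratio scaling the split was 4 higher and 3 lower (24% of all genes called), and with TPM rescaled without mitochondrial genes it was 2 higher and 3 lower (26.7%). Dunn's test called 1 member, Irs1, and 8.26% of all genes. At 6 weeks limma called 2 higher, and 6.79% of all genes were called (5.62% higher), while Dunn's test called 0 members and 0 genes. At 4 weeks limma called 0 of 10, and 0.0221% of all genes, with 1 member and 5.36% of all genes at an unadjusted p under 0.05 and 0 members by Dunn's test. Against non-cachectic mice 2 members were higher and 2 lower at 8 weeks (6.75% and 6.19% of all genes) and 2 were higher at 6 weeks (4.28%). At 4 weeks 0 were called (0.0295% of all genes), with 2 members and 5.13% of all genes at an unadjusted p under 0.05. Dunn's test called 0 members against non-cachectic mice in each of these weeks. Both comparisons use the same cachectic mice. At 6 weeks 5 of 10 members were above every control in all cachectic mice, as were 15.9% of all genes. The median log2 fold change of all genes was 0.17 at 6 weeks, 0.01 after median-ratio scaling and 0.03 with TPM rescaled without mitochondrial genes. The members' median was 0.49 at 6 weeks and 0.23 at 8 weeks, when that of all genes was -0.09.

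Without the 4 libraries with the fewest genes, the counts against controls were 5 higher and 2 lower at 8 weeks, with Igf1r, Insr, Pik3r1 and Igfbp5 added, where 22.2% of all genes were called higher and 12.4% lower. At 6 weeks they were 4 higher (26.9% of all genes), with Igf1r and Insr added. At 4 weeks Eif4ebp1 and Igf1r were higher (1.52% of all genes), and Igf1r had 6.86, 11.8, 7.87, 10.5 and 5.90 TPM in these cachectic mice and 5.03 to 5.94 TPM in controls. Igf1, Igf2 and Irs2 did not pass in any of these 3 weeks against controls. None of the 4 libraries is from 4 or 6 weeks. Fold changes of those weeks thus stayed the same, and only the spread shared by all conditions differed.

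**Figure D3:**
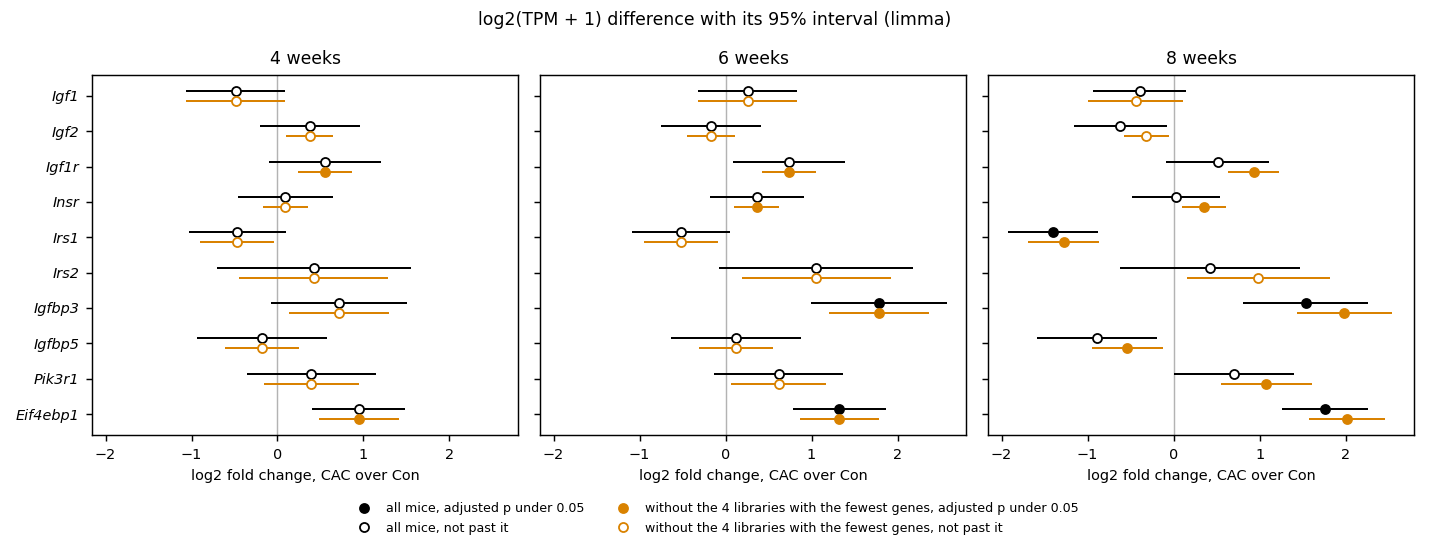
log2 fold change of the 10 genes in cachectic over control mice at 4, 6 and 8 weeks on the log2(TPM + 1) scale, with 95% intervals from limma, for all mice (black) and without the 4 libraries with the fewest genes (orange). Filled points have an adjusted p under 0.05, and Eif4ebp1, Igfbp3 and Irs1 are filled in both fits at 8 weeks.

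In non-cachectic versus control mice at 4, 6 and 8 weeks limma called 0 of 10 members and 0 genes in all, no member had an unadjusted p under 0.05, and Dunn's test called 0. Member fold changes on the log2 scale lay between -0.59 and 0.44. For Igf2 at 4 weeks every non-cachectic mouse (15.96 to 18.4 TPM) lay above every control (11.3 to 14.3 TPM), as for 0.155% of genes in this direction, with a log2 fold change of 0.44 (SE 0.29). Control mice at 8 versus 4 weeks gave 0 members and 0 genes, with 0 members at an unadjusted p under 0.05.

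The change over time within cachexia was tested as a difference of differences and did not pass for any member. From 4 to 8 weeks the difference between cachectic and control mice moved by 0.81 on the log2 scale for Eif4ebp1 (SE 0.37), by -0.94 for Irs1 (SE 0.38) and by -0.99 for Igf2 (SE 0.40). The adjusted p-values were 0.603, 0.549 and 0.549, these 3 were the members with an unadjusted p under 0.05 (7.53% of all genes), and limma called 0 genes in all. From 6 to 8 weeks 1 member had an unadjusted p under 0.05, Irs1 (-0.89, SE 0.38, adjusted p = 0.623), as did 4.27% of all genes, and 0 genes were called.

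Cachectic mice of the same week differed among themselves, and several members were high in the same animals. At 4 weeks replicate 2 had the highest value of the 5 mice for 6 members, Igf1r, Insr, Irs2, Igfbp3, Pik3r1 and Eif4ebp1, and the lowest for Irs1. Its Irs2 was 87.0 TPM and its Pik3r1 63.1 TPM, while the next mice had 17.2 and 30.4 TPM. Replicate 4 was among the highest pair of mice for 5 members. A list of 9 glucocorticoid target genes, which a stress hormone induces in muscle, had a mean log2(TPM + 1) of 7.23 in replicate 2 and 6.32 in replicate 4, and 4.63 to 5.63 in the other 3 cachectic mice. At 8 weeks replicate 6 was highest for 5 members, Igf1r, Insr, Igfbp3, Pik3r1 and Eif4ebp1, and lowest for Igf1. Replicate 3 was lowest for 9 members, with Igf1 the exception. The summed glucocorticoid targets were 196 to 4400 TPM in cachectic mice at 8 weeks and 280 to 429 TPM in controls. Of the 9, Mt2 (log2 fold change 5.21), Mt1 (3.34), Fkbp5 (2.51) and Tsc22d3 (0.93) were called higher. Per1 (0.81), Klf15 (0.60), Zbtb16 (0.57), Cdkn1a (0.54) and Klf9 (-0.01) did not pass, so the sum does not stand for each target. None of the 9 targets was at 0 in every mouse. Their part in these values was not tested.

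**Figure D4:**
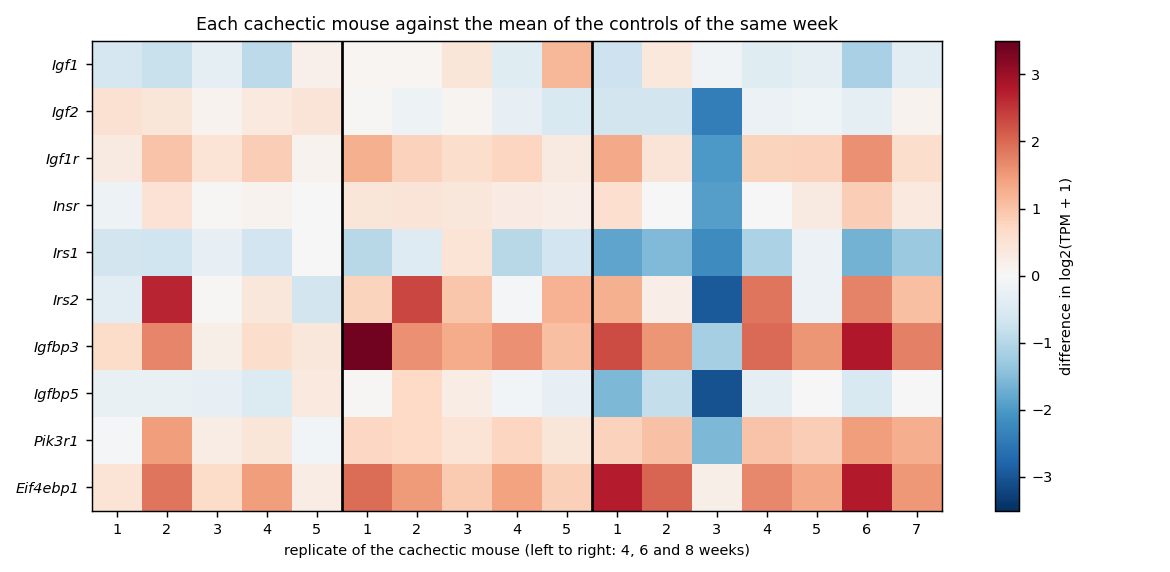
Difference in log2(TPM + 1) between each cachectic mouse and the mean of the controls of its week, for the 10 genes (rows) in 17 mice (columns, by replicate at 4, 6 and 8 weeks). Eif4ebp1 is above the control mean in all 17 mice, and replicate 3 at 8 weeks is the blue column, below it for the 9 other genes.

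Around the members, 80 of 87 other genes of the pathway were tested. In cachectic versus control mice at 8 weeks 10 were higher and 6 lower, which is 20.0% of them beside 14.8% of all genes. Their median log2 fold change was -0.17 beside -0.09 for all genes. At 6 weeks 5 were higher and 1 was lower (7.50% beside 6.79% of all genes), and at 4 weeks 1 was higher (1.25% beside 0.0221% of all genes). Without the 4 libraries with few genes 26 were higher and 11 lower at 8 weeks, where 22.2% and 12.4% of all genes were called, and 24 were higher and 2 lower at 6 weeks, where 26.9% of all genes were higher. Of the 16 called at 8 weeks, the 12 with the smallest adjusted p are described next, and the others were Rheb, Igfbp2, Bnip3 and Pdk4.

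Among regulators of the receptors, Grb14, an adaptor that inhibits the insulin receptor, fell at both weeks. Control mice at 8 weeks had a median of 21.1 TPM and cachectic mice 5.13 TPM, a log2 fold change of -1.56 (SE 0.19, limma, adjusted p = 8.49e-08). At 6 weeks it was -1.26 (adjusted p = 4.04e-05). Socs3, a feedback inhibitor of cytokine signaling that also acts on insulin receptor substrates, rose from a median of 6.93 TPM in controls to 47.0 TPM, a log2 fold change of 2.17 (SE 0.35, adjusted p = 1.03e-05). Stat5a, a transcription factor of growth hormone signaling, fell by 1.00 (adjusted p = 0.00382). Of 10 binding proteins and their regulators tested, members included, 2 rose and 1 fell at 8 weeks, beside 6.65% of all genes higher and 8.12% lower. Igfbp7 was among those that rose (0.55, adjusted p = 0.0218).

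In the list of mTORC1 and translation initiation, 6 of 23 genes rose and 1 fell at 8 weeks, Eif4ebp1 included, beside 6.65% of all genes higher and 8.12% lower. Ddit4, which encodes the mTORC1 inhibitor REDD1, had a median of 11.8 TPM in controls and 79.2 TPM in cachectic mice (log2 fold change 2.50, SE 0.56, adjusted p = 0.00102). Its relative Ddit4l fell by 0.89 (adjusted p = 0.00417). Sesn1, a stress-induced inhibitor of mTORC1, rose by 0.92 (adjusted p = 0.0247). Eif4ebp3, a paralog of Eif4ebp1, rose by 0.94 (adjusted p = 0.0244) from a low level, with medians of 0.780 TPM in controls and 1.79 TPM in cachectic mice. Rps6, a ribosomal protein that S6 kinase phosphorylates, rose by 0.68 (adjusted p = 4.87e-05). It has many processed copies in the genome, so its value is uncertain.

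Of 13 FoxO factors and targets, 3 rose and 1 fell at 8 weeks, beside the same shares of all genes. Ctsl, a lysosomal protease, rose by 1.08 (SE 0.19, adjusted p = 5.85e-05) and Map1lc3b, which encodes the autophagosome protein LC3B, by 0.82 (SE 0.18, adjusted p = 0.000639). Sesn3 fell by 0.87 (SE 0.24, adjusted p = 0.00875). None of the 13 genes of PI3K and AKT passed at 8 weeks (limma), and 5 did without the 4 libraries with few genes, all higher, where 22.2% of all genes were higher. Neither of the 2 ligands nor any of the 3 receptors tested passed at 8 weeks. Of 9 receptor adaptors 2 fell, Irs1 and Grb14, of 10 genes of insulin-regulated metabolism 1 fell, Pdk4, and of 7 genes of the growth hormone axis 1 rose and 1 fell, Socs3 and Stat5a. Against non-cachectic mice at 8 weeks, 11 of the 12 genes passed in the same direction, and Sesn1 did not (0.75, adjusted p = 0.0823). The 12 were picked by their adjusted p against controls, and both comparisons use the same cachectic mice. This agreement is therefore no separate support.

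**Figure D5:**
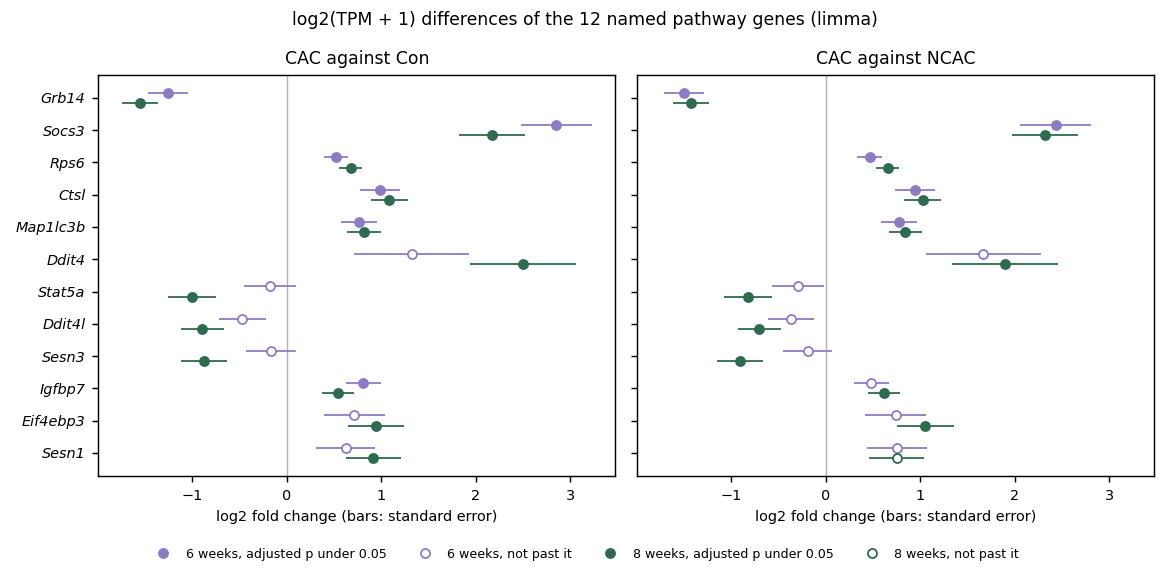
log2 fold change on the log2(TPM + 1) scale of the 12 other pathway genes with the smallest adjusted p at 8 weeks, in cachectic over control (left) and over non-cachectic mice (right), at 6 weeks (purple) and 8 weeks (green), with bars of 1 standard error. Filled points have an adjusted p under 0.05, and both panels share the same cachectic mice. Grb14 is lowest, at -1.56 against controls at 8 weeks, and Socs3 and Ddit4 are highest, at 2.17 and 2.50.

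The genes whose mean log2(TPM + 1) over the 12 conditions was most like that of a called member are given as a description. For Eif4ebp1 they were Rtca (Pearson's r = 0.989), Rpl7a (0.987) and Rpl18 (0.986). For Igfbp3 they were Csf2rb2 (0.992), Ube2e1 (0.991) and C78197 (0.991). For Irs1 they were Mrm1 (0.991), Tgfb2 (0.982) and Ank1 (0.981). These were picked as the highest of 13578 genes over 12 points that share libraries.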

How the data were processed

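RNA was extracted with Trizol and sequenced on an Illumina instrument. Per the study's methods, CLC Genomics Workbench was used for alignment of trimmed reads to GRCm38 (mm10). The authors deposited TPM values for each gene and mouse, which sum to 1000000 in each library. The labels and the paper name different TruSeq kits. The annotation release and the use of strand in counting are not given in the sources used here, so overlapping and antisense genes are uncertain. Gene positions come from GENCODE M21 and promoters from RefSeq (GRCm38.p6).

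Genes reaching 1 TPM in 5 or more mice entered the tests on log2(TPM + 1). All 12 conditions shared 1 limma model (version 3.58.1, under R 4.3.3), whose prior spread followed mean expression. Benjamini-Hochberg adjustment ran over 13578 genes within a comparison, and a gene was called at an adjusted p under 0.05. Fold changes on this scale understate changes of low genes. The labels call the samples of a condition biological replicates, and p-values measure the spread between these samples. The method was tested on simulated data. Alternatives were other pseudocounts, filters, scalings, weights, a replicate block, Dunn's test, a liver covariate and leaving out mice or libraries.

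The members and gene lists were chosen with earlier results of these data known. The genes named are the 10 members, up to 12 other pathway genes called at 8 weeks by smallest adjusted p, and the 3 genes most like each called member. Marker genes and the remaining pathway genes called were named after their values were seen. Figures were drawn with matplotlib 3.10.9.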

Additional observations from a re-analysis of the deposited data

Results flagged for a closer look

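Within each condition the highest or lowest mouse was compared with the spread of the others by Dixon's test, over 120 pairs of gene and condition. A mouse stood apart in 18 of them. About 1 in 20 is the rate for independent, normally distributed values. TPM were tested here without logs and genes share libraries, so that rate need not hold. Cachectic replicate 2 at 4 weeks was high in 3 members, with 87.0 TPM for Irs2, 71.5 TPM for Igfbp3 and 63.1 TPM for Pik3r1. Cachectic replicate 1 at 6 weeks had 225 TPM for Igfbp3, and the next mouse 65.3 TPM. For Irs1, cachectic replicate 3 at 6 weeks had 21.2 TPM, cachectic replicate 5 at 8 weeks 15.9 TPM and control replicate 2 at 8 weeks 28.6 TPM, each the highest of its condition.

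A library with few genes gave the low value for Pik3r1 in cachectic replicate 3 at 8 weeks (5.41 TPM) and for Igf1r in non-cachectic replicate 5 at 2 weeks (1.68 TPM). Among controls, Irs2 was high in replicate 2 at 4 weeks (41.1 TPM) and replicate 1 at 8 weeks (29.2 TPM), the mouse whose Igfbp3 was low (13.4 TPM). Pik3r1 was high in control replicate 5 at 8 weeks (30.3 TPM) and in cachectic replicate 2 at 2 weeks (33.3 TPM). Igfbp5 was high in cachectic replicate 5 at 4 weeks (411 TPM) and control replicate 3 at 6 weeks (461 TPM). Eif4ebp1 was high in control replicate 2 at 2 weeks (78 TPM), a library high in liver genes, and Insr in non-cachectic replicate 5 at 6 weeks (30.8 TPM). The cause was not tested for any of them.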

How the results depend on the processing

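Counts of members called varied with the processing, while the 5 calls against controls kept their direction under all 13 alternatives, with these ranges over the 12 that give a fold change: Eif4ebp1 (log2 1.13 to 1.45 at 6 weeks, 1.60 to 2.02 at 8), Igfbp3 (1.60 to 1.97, 1.23 to 1.99) and Irs1 (-1.56 to -1.05). Dunn's test lost Eif4ebp1 and Igfbp3 at both weeks, and a fit of only the groups compared lost Igfbp3 at 8 weeks. The cause was not tested unless stated. Here, counts printed without the share of all genes called beside them describe the setting only and are no result about the members.

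Cachectic versus control counts at 8 weeks were 7 with median-ratio scaling (4 higher, 3 lower, 24% of all genes called) and with quantile normalization (4 higher, 3 lower). They were 5 when rescaled without mitochondrial genes (2 higher, 3 lower, 26.7% of all genes), 8 with array weights (6 higher, 2 lower) and 1 by Dunn's test (8.26%). Without the 4 libraries with the fewest genes the count was 7, where 22.2% of all genes were called higher and 12.4% lower. It was 8 without both sets of 4 libraries, an alternative added after the data were examined. At 6 weeks the counts were 7 (array weights), 4 (both fits without the libraries with few genes), 6 (only the groups compared) and 0 (Dunn's test). At 4 weeks they were 2 with array weights and in both those fits. At 2 weeks the 3 became 1 with median-ratio scaling, quantile normalization or the liver covariate, the call under both scalings being Eif4ebp1 higher, and 0 with array weights, in the 3 fits without libraries, with only the groups compared and by Dunn's test. Non-cachectic versus control mice at 2 weeks gave 0 under both scalings, the liver covariate, without the liver-high libraries or both sets, with only the groups compared and by Dunn's test.

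Cachectic versus non-cachectic counts at 6 weeks were 5 (quantile normalization and both those fits), 7 (array weights), 6 (only the groups compared) and 0 (Dunn's test). At 8 weeks they were 7 without the libraries with few genes and 8 without both sets, 1 with only the groups compared and 0 by Dunn's test. At 4 weeks they were 2 with array weights and in both those fits. The change from 4 to 8 weeks gave 2 with array weights and 1 (lower) without both sets. Other comparisons stayed within 1.5 times of their count.

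Same-numbered mice do not share an animal, and 18 of 60 pairs correlated above 0.1 (-0.633 to 0.387). With the replicate number as a block, 5 members were called against controls at 8 weeks (2 higher, 3 lower), with Igf2 (-0.82) and Igfbp5 (-1.15) added. Insr at 8 weeks turned to -0.20. Replicates 6 and 7 exist only among cachectic mice at 8 weeks, so this fit sets both aside. Its fold changes at 8 weeks are those of cachectic replicates 1 to 5. No other count moved by over 1.5 times.

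Leaving out each mouse in turn gave 0 to 5 members for cachectic versus control mice at 2 weeks, 2 to 2 at 6 weeks and 3 to 5 at 8 weeks, and 0 to 2, 2 to 2 and 3 to 5 against non-cachectic mice at 2, 6 and 8 weeks. It gave 0 to 1 for non-cachectic versus control mice at 2 weeks, where control replicate 2 or non-cachectic replicate 2 ended the call. The highest counts at 8 weeks came without cachectic replicate 3 or, against non-cachectic mice, also replicate 7. At 2 weeks the calls against controls were all lost without control replicate 2 or 5 or cachectic replicate 3 or 4, and 5 were made without cachectic replicate 2. Some values near 0 changed sign. Insr at 8 weeks (0.03) became -0.0758 when rescaled without mitochondrial genes, and ranged from -0.108 to 0.355 with a mouse left out, below 0 without cachectic replicate 1 (-0.0663), 5 (-0.0179), 6 or 7 (-0.0241). Igfbp5 at 6 weeks (0.12) became -0.068, -0.0078 and -0.0441 under median-ratio, quantile and non-mitochondrial scaling, and ranged from -0.0183 (without cachectic replicate 2) to 0.301 (without control replicate 3). Without read counts, depth cannot be separated from level in low libraries.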
